A study of Mus musculus with 18 samples.

Results

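Cytoplasmic ribosomal proteins are the structural proteins of the cytosolic ribosome, which is built in the nucleolus from ribosomal RNA and roughly equimolar amounts of its proteins, and their messages are among the most abundant of any cell. They were followed here in early T cell development as every probe set of the array that is annotated to a single gene with a ribosomal protein symbol (Rpl, Rps or Rplp with a number, the S6 kinases and Rps4l left out). The rule uses names and no measured value. It gave 98 of 22626 probe sets and 47 of the 12393 genes with a probe set of their own. Of these, 26 genes with 46 probe sets are named for the large subunit and 21 genes with 52 probe sets for the small subunit. A single probe set represented 25 genes, and 22 genes had several, with 6 for each of 4 genes. A further 102 probe sets with such a symbol are annotated to several genes and were left out. Rpl5, Rpl10 and Rplp1 were therefore not analysed here. The members include the pseudogene Rps15a-ps6 and the paralogs Rpl22l1, Rpl39l, Rpl3l, Rpl7l1 and Rps27l.

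Messenger RNA had been measured on 18 Affymetrix mouse arrays (GeneChip 430A_2.0) of sorted thymocytes from C57BL/6 mice, all without genetic change or treatment. Lineage-negative cells were sorted as DN1 ETP (CD44+CD25-c-kit+), DN2 (CD44+CD25+) and DN3 (CD44-CD25+), from adult females of 4 to 6 weeks and from fetal thymi labelled E14.5 (the methods of the study give a later day). Each of the 6 groups had 3 arrays. RNA was extracted from a fixed number of cells of each population, material of several sorts was pooled and then amplified in 2 cycles, with more sorts pooled for adult than for fetal arrays. The labels call the arrays of a group biological replicates and the methods call them technical ones, so the p-values measure the spread between arrays, which may be technical. Values are log2 intensities centred on the median of each probe set over the 18 arrays. A value of 0 is that median, the values of different probe sets cannot be ranked as levels, and a probe set that is flat because it is steady cannot be told apart from one at the floor or the ceiling of the scale.

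Some arrays went against their labels or stood apart. The X-inactivation transcript Xist stood at 1.59, -11.28 and -11.34 in adult DN3 replicates 1 to 3, although all adult mice were labelled female. DN3 cells are given above as CD44-, and the study's own gate for them was low or intermediate CD44. Cd44 stood at -7.97, -7.84 and -0.86 on the same adult DN3 arrays in 1423760_at. In 1452483_a_at it stood at -0.22, -0.03 and -0.15, which did not set replicate 3 apart. The embryonic globin gene Hbb-y (1450621_a_at) lay between -0.07 and 0.04 on the fetal replicates 1 and between 2.35 and 5.97 on the other fetal arrays. In 1436717_x_at and 1436823_x_at fetal ETP replicate 1 stood at 5.47 and 5.31, fetal DN2 and DN3 replicates 1 between -0.16 and 0.12, and the other fetal arrays between 9.93 and 11.2. The called members are given below also without these arrays where the call was lost.

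Vertebrate ribosomal protein genes are transcribed from short promoters around a start within a run of pyrimidines, so that the messages begin with a terminal oligopyrimidine (TOP) tract through which growth signals control their translation. The 100 bases around the first start listed in RefSeq (GRCm38.p6, 70 before and 30 from the start on) are shown for the members on which most of the results turn and for the parent genes of 2 paralogs. Capitals mark the longest unbroken run of C and T in the window, and in Rps27l the first of 2 runs of that length.
Rpl39l (chr16:10170158-10170257, plus strand): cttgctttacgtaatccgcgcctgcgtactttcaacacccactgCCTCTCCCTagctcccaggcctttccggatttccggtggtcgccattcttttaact
Rpl39 (chrX:37085193-37085292, minus strand): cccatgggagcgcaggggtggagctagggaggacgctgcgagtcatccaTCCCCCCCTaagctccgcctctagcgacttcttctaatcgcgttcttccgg
Rps27l (chr9:66946016-66946115, plus strand): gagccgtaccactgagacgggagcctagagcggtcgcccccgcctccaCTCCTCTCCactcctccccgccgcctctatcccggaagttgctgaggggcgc
Rps27 (chr3:90213619-90213718, minus strand): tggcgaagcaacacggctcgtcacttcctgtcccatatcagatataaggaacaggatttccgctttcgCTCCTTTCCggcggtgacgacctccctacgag
Rps25 (chr9:44407644-44407743, plus strand): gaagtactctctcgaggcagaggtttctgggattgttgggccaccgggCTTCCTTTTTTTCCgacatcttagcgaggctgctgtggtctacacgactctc
Rps10 (chr17:27635215-27635314, minus strand): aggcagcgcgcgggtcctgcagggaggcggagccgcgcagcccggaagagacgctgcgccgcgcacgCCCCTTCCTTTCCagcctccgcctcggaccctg
Such a run was 9 bases long in Rpl39l, Rpl39, Rps27l and Rps27, 14 in Rps25 and 13 in Rps10. It spans the listed start in Rps27 and Rps10. In Rpl39l, Rpl39, Rps27l and Rps25 it ends before that start, so the marked run need not be a TOP tract. A start was listed for 41 of the 47 genes, and none for Rpl7, Rpl8, Rps14, Rps15a-ps6, Rps20 and Rps29. The median longest run was 9 bases in these 41 windows and 7 over the windows of all 27025 genes, and a run of at least 8 bases was present in 25 of the members (61.0%) and in 36.3% of all genes. In the 300 bases from 250 before to 50 after the start, on either strand, the ETS-family motif CCGGAAG was found in 20 members (48.8%) and in 9.12% of all promoters, the YY1 motif AAGATGG in 6 members (14.6%) and in 6.48%, and the TATA motif TATAAA in 5 members (12.2%) and in 14.2%. A listed start may lie some bases from the start used in thymocytes, and a match of letters is no measured binding.

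Ribosomal protein probe sets spanned the 18 arrays about as widely as all probe sets did. The distance between the lowest and the highest of the 18 arrays includes the scatter between replicates. Its median was 0.91 log2 over the 98 members and 1.12 log2 over all probe sets. The quartiles were 0.426 and 1.72 log2 for members and 0.205 and 2.07 log2 for all probe sets. Within 1 log2 stayed 53 members (54.1%), against 46.9% of all probe sets. The median SD within groups, as limma estimates it, was 0.225 log2 for members and 0.229 for all probe sets. The 3 narrowest members were Rps24 1436500_at with 0.0943 log2, Rps27 1460699_at with 0.102 and Rps4x 1420303_x_at with 0.104, and the widest was Rpl12 1435655_at with 5.61. These 3 and Rpl27a 1419799_at follow the median profile of the narrowest 5% of the table, taken without the members, at r over 0.9, as do 28.8% of all probe sets.

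**Figure D1:**
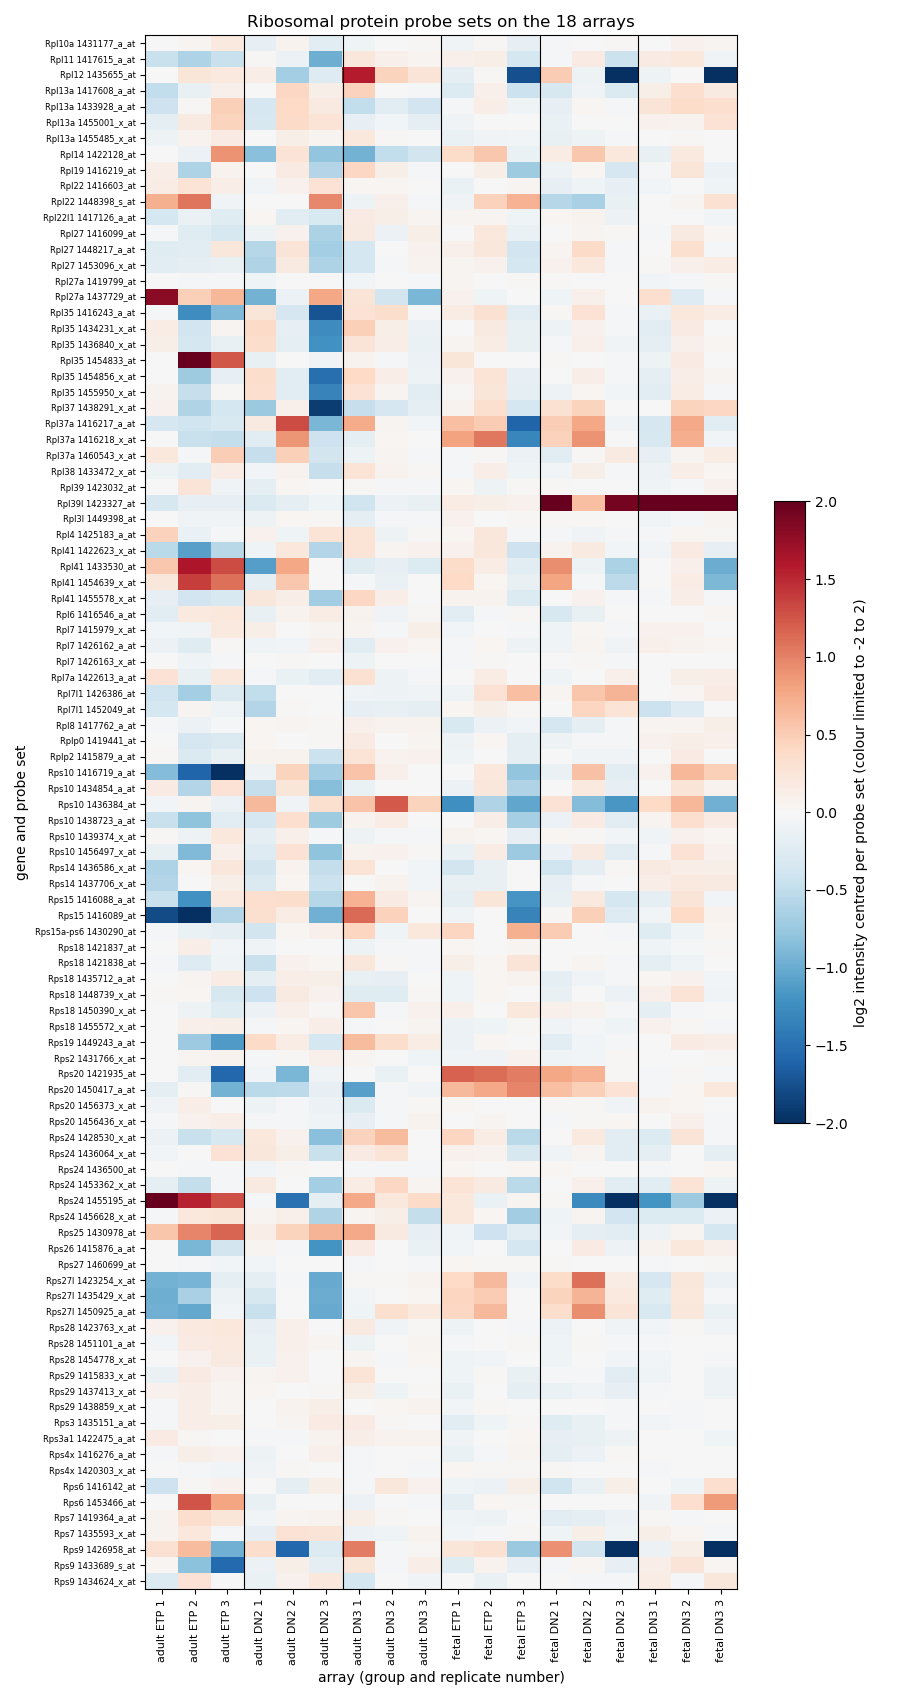
Centred log2 intensity of the 98 probe sets (rows, by gene) on the 18 arrays (columns, by group), with the colour limited to -2 to 2. Most rows are pale throughout, Rpl39l is dark in fetal DN2 and DN3, and blocks of low values stand on single arrays such as adult DN2 replicate 3.

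Over all 6 groups, 7 probe sets of 6 genes were regulated, that is, they passed limma's F test at an adjusted p under 0.05 with at least 1.8-fold between 2 groups. This is 7.14% of the members, against 16.8% of all probe sets. They were Rpl39l 1423327_at, Rpl7l1 1426386_at, Rps10 1416719_a_at, Rps20 1421935_at and 1450417_a_at, Rps24 1455195_at and Rps25 1430978_at. A difference of 1.8-fold between group means, whatever its p, was seen in 25 members (25.5%) and in 33.2% of all probe sets. In the 9 comparisons between fetal and adult cells of a stage or between stages of an age, a probe set was called when its adjusted p was under 0.05 and its difference at least 1.8-fold. At least 1 comparison called 12 members of 10 genes. The share of all probe sets called in at least 1 comparison was not counted, so this number only lists the members described below.

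**Figure D2:**
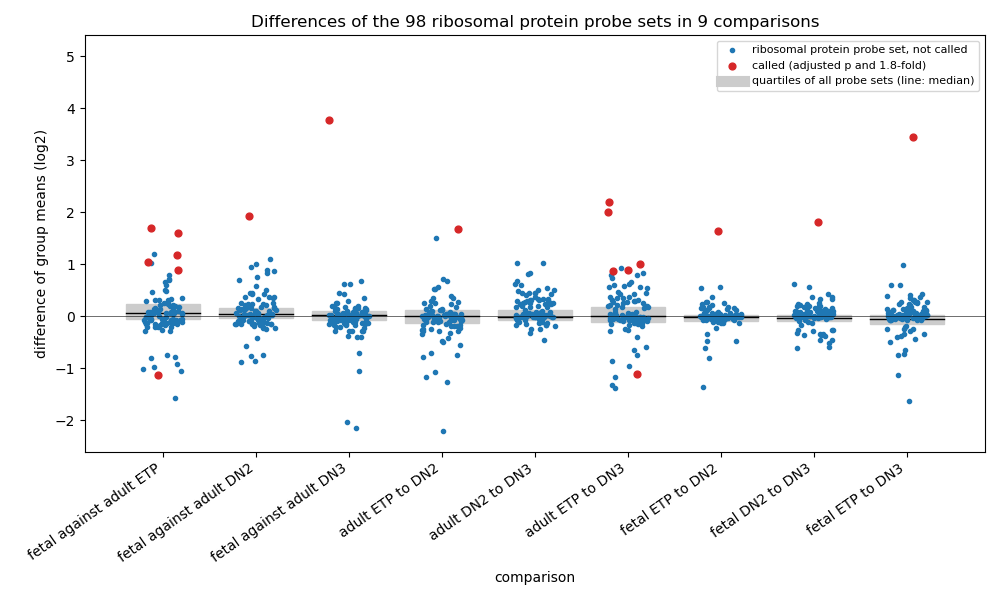
Difference of group means (log2) of each of the 98 probe sets in the 9 comparisons, first-named age or later stage minus the other, with called members in red and the range between the quartiles of all probe sets in grey. Most members lie within 1 log2 of 0, and the red points in the fetal stage comparisons and at fetal against adult DN2 and DN3 are all Rpl39l.

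The paralogs were described first, because one of them gave the largest difference among called members. Rpl39l encodes a paralog of Rpl39, a small protein of the polypeptide exit tunnel, and is best known from male germ cells. Its probe set 1423327_at stood at -0.32, -0.17 and -0.17 in adult ETP, at -0.29, -0.20 and -0.09 in adult DN2 and at -0.40, -0.11 and -0.15 in adult DN3. The fetal values were 0.14, 0.11 and 0.09 in ETP, 2.71, 0.61 and 1.91 in DN2, and 3.50, 3.61 and 3.54 in DN3. Adult arrays thus lay together at every stage, all fetal arrays lay above them, and fetal DN2 was spread between fetal ETP and fetal DN3. Rpl39l was higher in fetal than in adult DN3 by 3.77 ± 0.35 (SE, n = 3 and 3; 13.7-fold, adjusted p = 1.55e-05) and in fetal than in adult DN2 by 1.94 ± 0.35 (3.83-fold, adjusted p = 0.00618). The SE, here and below, rests on a spread that limma estimates over all 6 groups, so it does not show the wider scatter of fetal DN2. With limma on the arrays of the 2 groups alone, the call at DN2 was lost (adjusted p = 0.308).

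Rpl39l was the only member called in fetal against adult DN2 and in fetal against adult DN3, where 3.44% and 2.77% of all probe sets were called. From fetal ETP to fetal DN3 it rose by 3.44 ± 0.35 (10.8-fold, adjusted p = 2.36e-05), in a comparison that called 5.45% of all probe sets and no other member. Of this, the step from DN2 to DN3 gave 1.81 ± 0.35 (adjusted p = 0.0113), in a comparison that called 2.47% of all probe sets. With limma on the arrays of fetal DN2 and DN3 alone, that call was lost (adjusted p = 0.229). The step from fetal ETP to DN2 gave 1.63 ± 0.35 (adjusted p = 0.0427), with 0.972% of all probe sets called, and this call was lost with the array number as a block (adjusted p = 0.0668) and in each fit that left out 1 array except fetal DN2 replicate 2 (adjusted p up to 0.187). It was also lost without all fetal replicates 1 (1.16, adjusted p = 0.330) and without adult DN3 replicates 2 and 3 (adjusted p = 0.0831). Comparisons that share arrays are not independent of each other. The fetal excess grew from 0.33 at ETP to 3.77 at DN3, a change of 3.44 ± 0.49 that passed as an interaction (adjusted p = 0.00148), as 2.49% of all probe sets did. No other member did so for any of the 3 pairs of stages (0.796% of all probe sets for ETP against DN2 and 0.548% for DN2 against DN3).

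Without adult DN3 replicates 2 and 3, the difference of Rpl39l at DN3 was 3.96 (adjusted p = 0.000618), and without the fetal replicates 1 it was 3.80 (adjusted p = 3.08e-05). Without the fetal replicates 1, the difference at DN2 was 1.45 (adjusted p = 0.0259), and the rise from fetal ETP to DN3 was 3.48 (adjusted p = 0.000129). The parent gene Rpl39 (1423032_at) stood within 0.456 log2 over all 18 arrays, from -0.19 in an adult DN2 array to 0.26 in an adult ETP array, and its F test had an adjusted p of 0.836.

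Rps27l encodes a paralog of Rps27 and is a known target of p53. In 1450925_a_at it stood at -0.96, -1.03 and -0.05 in adult ETP and at 0.42, 0.65 and 0.01 in fetal ETP, so that the groups did not overlap but the highest adult and the lowest fetal array nearly met. The fetal arrays were higher by 1.04 ± 0.31 (adjusted p = 0.0456), and by 0.89 ± 0.26 in 1435429_x_at (adjusted p = 0.0434). The third probe set, 1423254_x_at, had -0.94, -0.92 and -0.20 in adult ETP against 0.40, 0.65 and -0.07 in fetal ETP and was not called. The calls are weak: of 18 fits that leave out 1 array, 1450925_a_at kept its call in 6 and 1435429_x_at in 7. For both they were lost without adult ETP replicates 1 or 2, any adult DN3 or fetal DN3 array, fetal ETP replicates 1 or 2 or fetal DN2 replicate 1, and for 1450925_a_at also without fetal DN2 replicate 3, with adjusted p up to 0.160 for 1450925_a_at and 0.133 for 1435429_x_at. Without all fetal replicates 1 the adjusted p were 0.182 and 0.192, and without adult DN3 replicates 2 and 3 they were 0.0692 and 0.0721. Rps27 1460699_at, the parent, spanned 0.102 log2 (F test adjusted p = 0.467).

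Rpl7l1, whose product acts in the assembly of the large subunit, stood at -0.40, -0.68 and -0.28 in adult ETP and at -0.09, 0.29 and 0.60 in fetal ETP in 1426386_at. The difference of 0.72 ± 0.19 passed the adjusted p (0.0304) but not the fold limit, which it passed without fetal ETP replicate 1 (0.89). The adjusted p was 0.117 without adult ETP replicate 2 (0.61), 0.114 without fetal ETP replicate 3 (0.55), 0.0827 without fetal ETP replicate 2 and 0.0547 without adult DN3 replicates 2 and 3. Its second probe set 1452049_at was not called. Rpl22l1, the paralog of Rpl22, rose from adult ETP (-0.34, -0.14 and -0.25) to adult DN3 (0.17, 0.11 and 0.06) by 0.36 ± 0.08, with an adjusted p of 0.0117 (0.0684 without adult DN3 replicates 2 and 3) and under the fold limit. Rpl22 is needed by developing αβ T cells. It was not called in any comparison in 1416603_at, which spanned 0.455 log2, or in 1448398_s_at, which spanned 1.71 log2. Rpl3l, a paralog known from muscle, stayed within 0.285 log2, and the 3 probe sets of Rpl7 stayed within 0.129 to 0.352 log2.

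**Figure D3:**
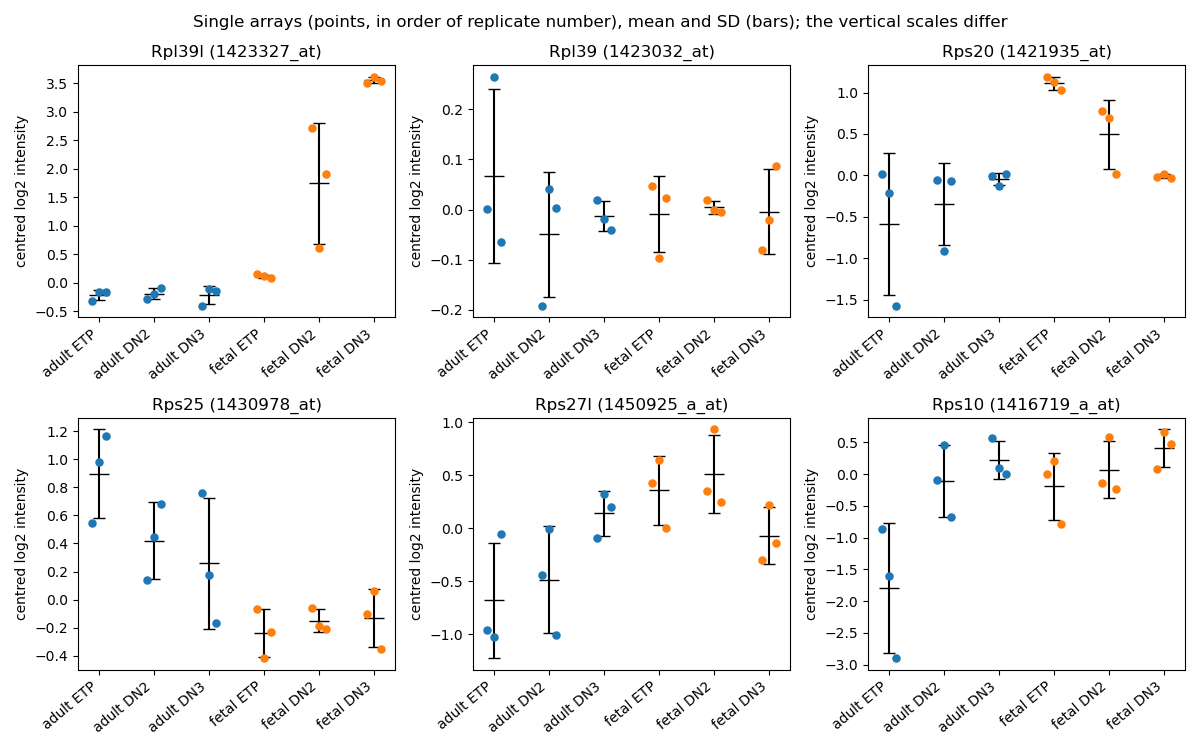
Centred log2 intensity on single arrays for 6 probe sets (points, adult in blue and fetal in orange), with the mean and SD of the 3 arrays of each group. The fetal DN3 arrays of Rpl39l lie between 3.50 and 3.61, Rpl39 stays within 0.456 log2, and the other panels show the members that differed between adult and fetal ETP; the vertical scales differ.

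In fetal against adult ETP, 6 members of 4 genes were called, 5 higher and 1 lower. This is 6.12% of the members against 8.49% of all probe sets (5.04% higher and 3.45% lower). By the adjusted p alone, 6 members were higher and 3 lower, against 11% of all probe sets in both directions. Over the members the median difference was 0.02 log2, and over all probe sets it was 0.07. All 6 were small subunit members: with Rps27l they were Rps20, Rps10 and Rps25. Rps20 and Rps10 sit near each other on the small subunit, where both are ubiquitylated on stalled ribosomes, and Rps25 is needed by several viral entry sites for translation.

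Rps20 stood at 0.01, -0.22 and -1.57 in adult ETP and at 1.18, 1.12 and 1.03 in fetal ETP in 1421935_at. The difference of 1.70 ± 0.35 (3.26-fold) had an adjusted p of 0.00653. In 1450417_a_at the arrays stood at -0.20, 0.02 and -0.94 against 0.65, 0.76 and 0.98, a difference of 1.17 ± 0.27 (adjusted p = 0.0153). The fetal ETP arrays were above the adult ones in both probe sets, and 1 adult ETP array, replicate 3, was far below the other adult ETP arrays. Without that replicate the second difference was 0.89 (adjusted p = 0.0590), without fetal ETP replicate 3 it was 1.08 (adjusted p = 0.0528), and without the fetal replicates 1 both calls were lost (1.67 and 1.24, adjusted p = 0.0535 and 0.0669). The other Rps20 probe sets, 1456373_x_at and 1456436_x_at, differed by 0.00 and -0.04.

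Rps25, in its only probe set 1430978_at, stood at 0.55, 0.98 and 1.17 in adult ETP and at -0.07, -0.42 and -0.23 in fetal ETP. It was lower in fetal ETP by -1.14 ± 0.22 (adjusted p = 0.00504), and this call was kept in all 18 fits that leave out 1 array and without all fetal replicates 1 (-1.22, adjusted p = 0.0303). In adult DN2 it stood at 0.14, 0.44 and 0.68 and in adult DN3 at 0.76, 0.17 and -0.16, and no fetal array was above 0.06.

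Rps10 had 6 probe sets that did not move alike. In 1416719_a_at it stood at -0.87, -1.60 and -2.90 in adult ETP, at -0.09, 0.45 and -0.68 in adult DN2, at 0.57, 0.10 and 0.00 in adult DN3 and at 0.00, 0.21 and -0.79 in fetal ETP. Adult ETP was thus low and widely spread. The fetal excess at ETP was 1.60 ± 0.46 (adjusted p = 0.0409), and the call was lost without adult ETP replicates 2 or 3, adult DN3 replicates 2 or 3, fetal ETP replicates 1 or 2, fetal DN2 replicates 1 or 3 or any fetal DN3 array (adjusted p up to 0.142, with 1.04 as the difference without adult ETP replicate 3). It was lost too without all fetal replicates 1 (adjusted p = 0.184) and without adult DN3 replicates 2 and 3 (adjusted p = 0.0635). The other 5 probe sets of Rps10 gave fetal minus adult differences at ETP from -0.91 in 1436384_at to 0.31 in 1438723_a_at, none called.

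Rps29 1437413_x_at (-0.20 ± 0.06) and Rps7 1419364_a_at (-0.27 ± 0.07) passed the adjusted p (0.0415 and 0.0160) in fetal against adult ETP, far under the fold limit, and their adjusted p were 0.204 and 0.0984 without the fetal replicates 1. Messages of marker genes of other cell types differed in this comparison too. The mean of 11 probe sets of 9 myeloid genes lay between 3.43 and 4.14 in adult ETP and between 1.40 and 1.66 in fetal ETP, with 7 of the 11 called lower in fetal ETP. The mean of 7 natural killer and innate probe sets lay between -1.02 and -0.07 in adult ETP and between 1.40 and 1.78 in fetal ETP, with 2 called higher. The mean of 15 erythroid probe sets lay between -0.12 and -0.07 in adult ETP and between 0.81 and 2.35 in fetal ETP, with 1 called higher. The methods state that cells with CD11b, NK1.1 or TER119 on the surface, marks of these lineages, were removed with magnetic beads before the sort. The mean of 37 cell cycle probe sets lay between -0.93 and -0.42 in adult ETP and between -0.07 and -0.02 in fetal ETP. For 13 probe sets of markers of the sorted thymocytes it lay between -3.16 and -2.21 in adult ETP. In fetal ETP it lay between -1.68 and -0.92, with 4 called higher and 0 lower. The part of any of these in the ribosomal protein values was not tested. In such sorted pools fewer cells of a type and less RNA per cell cannot be told apart.

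In adult differentiation from ETP to DN3, 6 members were called, 5 higher and 1 lower, which is 6.12% of the members against 10.8% of all probe sets (5.56% higher and 5.2% lower). By the adjusted p alone, 7 members were higher and 1 lower, against 13.1% of all probe sets. The median difference of the members was 0.02 log2 and that of all probe sets 0.00. With it the mean of the myeloid probe sets fell from between 3.43 and 4.14 in adult ETP to between -0.66 and 0.04 in adult DN3 (8 of 11 called lower), and that of the cell cycle probe sets lay between -0.32 and 0.25 in adult DN3 (14 of 37 called higher). The part of either was not tested. Rps15 (1416089_at), a protein of the decoding head that helps the small subunit leave the nucleus, stood at -1.78, -2.63 and -0.59 in adult ETP and at 1.13, 0.45 and -0.01 in adult DN3. It rose by 2.19 ± 0.52 (4.57-fold, adjusted p = 0.0128). Its arrays did not overlap between the stages, but the call was lost without adult ETP replicate 2 (1.71, adjusted p = 0.0568) or adult DN3 replicate 1 (1.89, adjusted p = 0.0545), and its second probe set 1416088_a_at gave 0.79 ± 0.40 (adjusted p = 0.280). Without adult DN3 replicates 2 and 3 the difference was 2.80 (adjusted p = 0.0372).

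Rps10 1416719_a_at rose by 2.01 ± 0.46 (4.04-fold, adjusted p = 0.00985), a call kept in all 18 fits that leave out 1 array and lost without adult DN3 replicates 2 and 3 together (2.36, adjusted p = 0.0560). Rps19, which is mutated in Diamond-Blackfan anaemia, stood at 0.00, -0.73 and -1.13 in adult ETP and at 0.64, 0.36 and 0.15 in adult DN3 in 1449243_a_at and rose by 1.00 ± 0.24 (adjusted p = 0.0130). That call was lost without adult ETP replicate 3 (0.75, adjusted p = 0.0554) or adult DN3 replicate 1 (0.87, adjusted p = 0.0543), and kept without adult DN3 replicates 2 and 3 (1.26, adjusted p = 0.0436).

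Rpl41, the smallest ribosomal protein, stood at -0.53, -1.09 and -0.55 in adult ETP and at 0.28, 0.05 and 0.08 in adult DN3 in 1422623_x_at. It rose by 0.86 ± 0.21 (adjusted p = 0.0152), and the call was lost without adult ETP replicate 2 (0.68, adjusted p = 0.0682), adult DN3 replicate 1 (0.79, adjusted p = 0.0553) or adult DN3 replicates 2 and 3 together (1.00, adjusted p = 0.0838). The 2 remaining calls were on groups that overlapped. Rps9 1433689_s_at stood at 0.04, -0.83 and -1.55 in adult ETP and at 0.24, -0.03 and 0.13 in adult DN3 and rose by 0.89 ± 0.27 (adjusted p = 0.0493). Rpl35 1454833_at stood at 0.00, 2.03 and 1.24 and at 0.07, -0.02 and -0.11 and fell by 1.11 ± 0.34 (adjusted p = 0.0454). In both, adult ETP replicate 1 lay among the DN3 arrays. Both calls were lost in every fit that left out 1 array except adult ETP replicate 1, with adjusted p up to 0.154 and 0.142, and the differences were 0.50 for Rps9 without adult ETP replicate 3 and -0.64 for Rpl35 without adult ETP replicate 2. Without adult DN3 replicates 2 and 3 the adjusted p were 0.200 and 0.340, and without all fetal replicates 1 they were 0.117 and 0.108.

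Adult ETP to DN2 called 1 member (1.02%) against 6.07% of all probe sets, again Rps10 1416719_a_at with 1.68 ± 0.46 (adjusted p = 0.0418). That call was lost without adult ETP replicates 2 or 3, adult DN2 replicates 1 or 2, adult DN3 replicates 2 or 3, fetal ETP replicate 1, fetal DN2 replicates 1 or 3 or any fetal DN3 array (adjusted p up to 0.144), without all fetal replicates 1 (adjusted p = 0.0987) and without adult DN3 replicates 2 and 3 (adjusted p = 0.0664). Adult DN2 to DN3 called 0 members with limma, against 0.928% of all probe sets, with 2 members at an unadjusted p under 0.05 and 12 called when limma weighted the arrays (12.2% of the members and 8.45% of all probe sets).

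The stalk that recruits the elongation factors to the ribosome is formed by Rplp0 with Rplp1 and Rplp2. Rplp0 1419441_at stood at -0.01, -0.34 and -0.29 in adult ETP and at 0.16, -0.01 and 0.05 in adult DN3, so that the highest adult ETP array lay just under the lowest adult DN3 array. Its rise of 0.28 ± 0.08 had an adjusted p of 0.0285 (0.0766 without the fetal replicates 1 and 0.0579 without adult DN3 replicates 2 and 3) and was under the fold limit. Rplp2 1415879_a_at spanned 0.689 log2 and did not pass the F test (adjusted p = 0.425). Rpl11, which with Rpl5 and the 5S RNA can bind Mdm2, stood at -0.45, -0.62 and -0.45 in adult ETP and between -0.97 and 0.23 on all other arrays in 1417615_a_at (F test adjusted p = 0.243).

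Probe sets of the same gene disagreed most in adult ETP. Over the 22 genes with several probe sets, the median distance between the lowest and the highest group mean of a gene was 0.358 log2 in adult ETP, and it lay between 0.0902 and 0.191 in the other 5 groups. All 4956 genes with several probe sets of their own had 0.383 log2 in adult ETP and 0.144 to 0.200 in the other groups, so that adult ETP was highest over all genes too. The distance was over 1 log2 for 6 genes in adult ETP (Rps24 1.92, Rpl41 1.88, Rps10 1.83, Rpl35 1.81, Rps15 1.18 and Rpl27a 1.01), for 1 gene in each fetal group and for 0 in adult DN2 and adult DN3. That is 27.3% of the 22 genes in adult ETP, against 20.5% of all such genes. These distances were not tested against each other. For Rpl41 and Rpl35 some probe sets were over 0.5 and others under -0.5: Rpl41 stood at 1.15 in 1433530_at and at -0.72 in 1422623_x_at, and Rpl35 at 1.09 in 1454833_at and at -0.72 in 1416243_a_at. Of the members, 40 (40.8%) have a name ending in _x_at, which marks probes shared with other sequences, against 6.68% of all probe sets, and 2 of the 12 called members are of this kind.

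**Figure D4:**
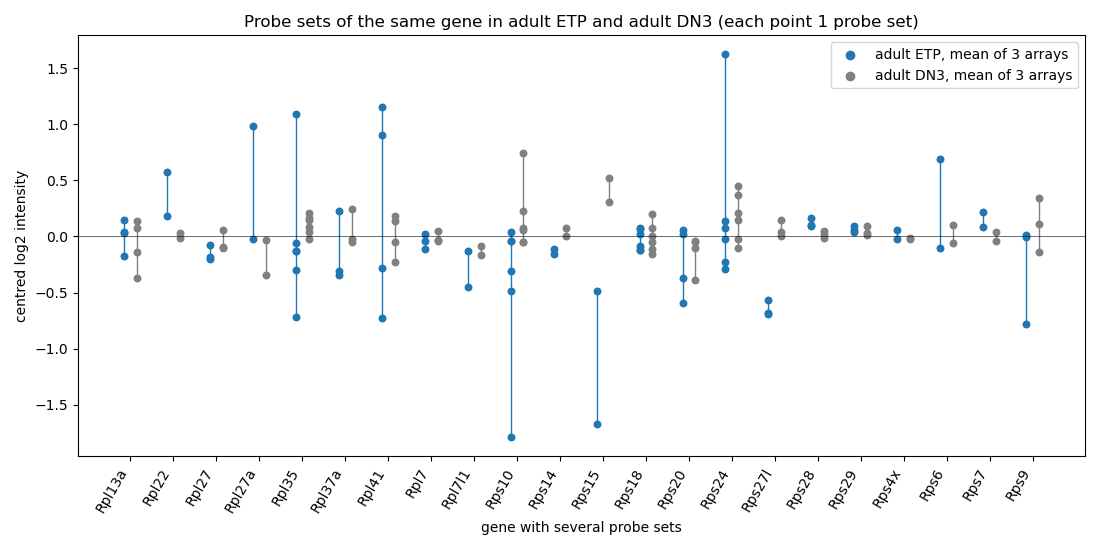
Mean centred log2 intensity of each probe set (point) of the 22 genes with several probe sets, in adult ETP (blue) and adult DN3 (grey), with a line joining the probe sets of a gene. In adult ETP 6 genes have probe sets more than 1 log2 apart, and in adult DN3 none has.

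Single arrays carried many of the low values. On adult DN2 replicate 3, 28 members of 13 genes were under -0.5, on adult ETP replicate 2 there were 19, on fetal ETP replicate 3 there were 15, and on every other array at most 9. More than 0.5 from the median in either direction were 31.6% of the members and 21.8% of all probe sets on adult DN2 replicate 3, 27.6% and 27.3% on adult ETP replicate 2, and 20.4% and 16.5% on fetal ETP replicate 3. The members low on adult DN2 replicate 3 and adult ETP replicate 2 had 16 in common, 57.1% of the first and 84.2% of the second list. Among these are several probe sets of the same gene, as for Rps10 and Rps27l. The overlap of these arrays over all probe sets was not counted, so it is not shown to be particular to the members. With both arrays left out, fetal against adult ETP called 3 members, and Rps25 was among them with -1.10 (adjusted p = 0.0193), as were Rps20 1421935_at with 1.89 (adjusted p = 0.0107) and 1450417_a_at with 1.37 (adjusted p = 0.0134).

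Other members were low on the fetal replicates 3. Rpl12 1435655_at, of the stalk base, stood there at -1.76 in ETP, -3.78 in DN2 and -4.04 in DN3, and no other fetal array was under -0.18. Rps9 1426958_at stood at -0.74, -2.19 and -2.13 on the same arrays. Neither was called in any comparison. Rps24 1455195_at, regulated over the 6 groups, stood at 2.04, 1.54 and 1.28 in adult ETP and at -1.19, -0.73 and -2.82 in fetal DN3. It was not called in any of the 9 comparisons.

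Genes that build the ribosome or work with it were counted in the same comparisons, where fetal against adult ETP called 5.04% of all probe sets higher and 3.45% lower. Of 106 probe sets of 63 ribosome biogenesis genes, whose products process ribosomal RNA and assemble the subunits, 24 were called with a higher value in fetal ETP and 0 with a lower one (22.6%), and their median difference was 0.59 log2. From adult ETP to DN3, 21 were higher and 0 lower. In fetal against adult DN2 8 were higher (7.55%), against 1.87% of all probe sets. In fetal against adult DN3 0 were called, against 2.77% of all probe sets. Pno1, a partner of the maturing small subunit, was 1.95 ± 0.21 higher in fetal ETP (adjusted p = 7.19e-05), Tsr1 2.13 ± 0.38 (adjusted p = 0.00284), Noc4l 2.15 ± 0.46 in 1423826_at (adjusted p = 0.00927) and Nop10 2.23 ± 0.58 in 1423211_at (adjusted p = 0.0266). Noc4l and Nop10 have further probe sets, whose values are not given here.

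Of 127 probe sets of 74 genes for proteins of the mitochondrial ribosome, 21 were higher and 0 lower in fetal ETP, with a median difference of 0.52 log2. Mrpl50 was higher by 2.12 ± 0.26 in 1424164_at (adjusted p = 0.000193), while 1451266_at gave 0.37 ± 0.23 (adjusted p = 0.225). From adult ETP to DN3 15 were higher and 2 lower, and in fetal against adult DN3 0 were called. Translation initiation genes had 4 higher and 0 lower of 79 probe sets in fetal ETP (5.06%, near the 5.04% of all probe sets), among them the cap-binding Eif4e with 1.37 ± 0.28 in 1450908_at (adjusted p = 0.00650). The other probe sets of Eif4e were not called. The list for translation elongation, whose genes need not all encode elongation factors, had 2 higher of 10. They were Eif5a 1437859_x_at with 1.38 ± 0.23 (adjusted p = 0.00182) and Eef1e1 with 1.29 ± 0.20 (adjusted p = 0.00121). Eif5a 1451470_s_at was not called. Genes of RNA polymerases I and III had 2 higher of 38 (5.26%), other messages with a TOP tract had 0 called of 36, and the 3 probe sets of 2 ribosomal protein genes outside the naming rule had 0 called. The lists are counted beside the members and were not tested against them.

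**Figure D5:**
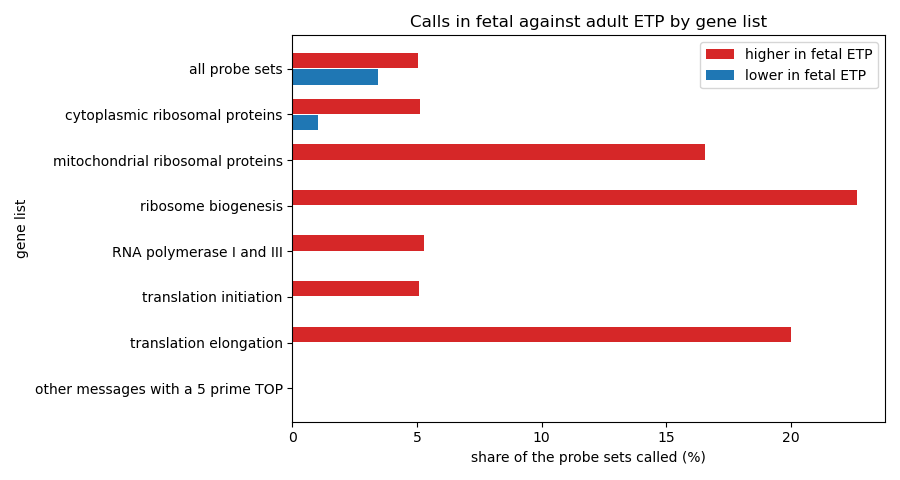
Share of the probe sets (%) called higher (red) or lower (blue) in fetal than in adult ETP, for all probe sets, the 98 cytoplasmic ribosomal protein probe sets and 6 other gene lists. Ribosome biogenesis reaches 24 of 106 probe sets and mitochondrial ribosomal proteins 21 of 127, and the cytoplasmic ribosomal proteins 5 of 98.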

How the data were processed

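Messenger RNA was measured on 18 Affymetrix arrays, 3 for each of 6 groups. Per the labels and the methods, the authors used GCRMA to obtain the log2 values they deposited (version not given in the sources used here). The deposited table is centred on the median of each probe set over all arrays, so the study's filter on low intensities could not be applied, and all 22626 probe sets were tested. The number of arrays limits the precision. All columns could be assigned to a sample.

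limma 3.58.1 in R 4.3.3 (lmFit and eBayes, one mean per group, no trend) gave contrasts, an F test and interactions, adjusted by Benjamini and Hochberg over the whole table. A call needs an adjusted p under 0.05 and at least 1.8-fold. The fit was tested on simulated data. Gene names come from the platform annotation and promoters from RefSeq (GRCm38.p6). Figures were drawn with matplotlib 3.10.9 in Python 3.11.15. The members, the gene lists (ribosome and translation, Myc and growth, p53, cell cycle and cell type markers) and the tests were chosen with earlier results of these data known.

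Named genes are the paralogs with their parents, every called member, Rpl22, Rpl11 and the stalk proteins, the 3 members of smallest span, and up to 4 called genes of each other list. Rpl12, Rps24 1455195_at and Rps9 1426958_at were named after their values were seen. Alternatives were another centring, array weights, robust moderation, a block for the array number, gene means, probe sets without shared probes, the 2 groups alone, the methods' one-way test, and leaving out each array. Leaving out sets of arrays that stood apart was added after seeing the data. Arrays of one number deviated together (r over 0.1 in all 3 pairs) among the fetal groups (0.312 to 0.597), between adult DN2 and the fetal groups and between adult DN2 and adult DN3, and not between other groups.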

Additional observations from a re-analysis of the deposited data

Results flagged for a closer look

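The fetal against adult difference of Rpl39l (1423327_at) was larger at DN3 than at ETP by 3.44 ± 0.49 log2, a difference between stages tested as an interaction in limma (adjusted p = 0.00148, n = 3 arrays in each of 4 groups). It was 0.33 at ETP and 3.77 at DN3, and all 3 fetal DN3 arrays were above all 3 adult DN3 arrays.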

How the results depend on the processing

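The limits are 3 arrays per group, centred values without a level and calls that often lie near the threshold. A filter on low values was planned and was not run, since centred values have no level. Of 709 values of single probe sets under alternatives, 531 stayed on their side of the threshold, 176 lost the call and 2 gained it. No direction reversed, but many of the alternatives could not reverse one. Robust moderation, the block, no fold limit, the 2 groups alone, the one-way test and leaving out arrays of other groups leave a difference unchanged. The run with gene means holds no single probe sets. Rpl39l in fetal against adult DN3 and in fetal ETP to DN3 kept its call in every alternative run. With robust moderation, without a fold limit and without probe sets of shared probes, no count of calls moved by more than 1.5 times.

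Members called were 6 in fetal against adult ETP, 1 each in fetal against adult DN2 and DN3, 1 in adult ETP to DN2, 0 in adult DN2 to DN3, 6 in adult ETP to DN3, 1 each in fetal ETP to DN2, DN2 to DN3 and ETP to DN3, 7 over the 6 groups and 1 as a change between stages. With each array centred on its median, fetal against adult ETP called 3 (2 higher and 1 lower, Rps20 and Rps25), its median member difference was -0.0460 instead of 0.0207, and that of fetal ETP to DN3 was 0.0692. With array weights the counts were 12 in fetal against adult ETP, 15 in fetal against adult DN2, 7 in adult ETP to DN2 (median -0.0710), 12 in adult DN2 to DN3 and 12 in adult ETP to DN3, 30 members were regulated over the 6 groups and 6 changed between stages, and the median of fetal DN2 to DN3 was -0.0267. These 7 counts are 12.2%, 15.3%, 7.14%, 12.2%, 12.2%, 30.6% and 6.12% of the members, against 13.3%, 15.1%, 10.6%, 8.45%, 14%, 32.7% and 8.43% of all probe sets under the same weights. The cause was not tested.

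With the array number as a block, fetal ETP to DN2 called 0 and adult ETP to DN2, whose numbers pair no arrays, called 2, and no other count of members called moved by more than 1.5 times. With the probe sets of each gene averaged, fetal against adult ETP called 2 genes, adult ETP to DN2 0 and adult ETP to DN3 2, and 3 were regulated. With only the 2 groups compared in the fit, fetal against adult ETP called 2, fetal ETP to DN3 2, and fetal against adult DN2, adult ETP to DN2, adult ETP to DN3, fetal ETP to DN2 and fetal DN2 to DN3 0 each. The methods' one-way test, run here on the arrays of 2 groups at a time, gave, unadjusted, 2 in fetal against adult DN2 and 2 in fetal against adult DN3. Of all probe sets, 4.84% and 4.93% passed there. It gave 0 in fetal ETP to DN2 and 2 in fetal ETP to DN3, where 2.49% and 8.05% of all probe sets passed. Over the 6 groups it gave 15 (15.3% of the members and 21.9% of all probe sets). After Benjamini-Hochberg adjustment it gave 2 in fetal ETP to DN3 and 0 in fetal against adult ETP, fetal against adult DN2, adult ETP to DN2, adult ETP to DN3, fetal ETP to DN2 and fetal DN2 to DN3.

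Without the fetal replicates 1, fetal against adult ETP called 2, adult ETP to DN2 0 and fetal ETP to DN2 0, and 3 were regulated. Without adult DN3 replicates 2 and 3, the counts were 3 in fetal against adult ETP, 0 in adult ETP to DN2, 2 in adult ETP to DN3 and 0 in fetal ETP to DN2, 4 were regulated and 2 changed between stages, and the medians were -0.0594 in fetal against adult DN3 and 0.146 in adult DN2 to DN3. Without adult ETP replicate 2 and adult DN2 replicate 3, fetal against adult ETP called 3 and fetal ETP to DN2 0, 3 were regulated, and the median of fetal against adult DN2 was -0.0276.

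Leaving out 1 array at a time gave 3 to 8 calls in fetal against adult ETP (3 without adult ETP 2, adult DN3 2 or 3, fetal ETP 2, fetal DN2 1 or any fetal DN3 array; median -0.0346 to 0.0581), 1 to 4 in fetal against adult DN2 (4 without adult DN2 2, 2 without adult DN3 1; median -0.0276 to 0.0980), and 1 in fetal against adult DN3. It gave 0 to 5 in adult ETP to DN2 (5 without adult ETP 1, 3 without adult DN2 3, 0 without adult ETP 2, adult DN2 1, adult DN3 2 or 3, fetal ETP 1 or fetal DN3 1 or 2; median -0.0564 to 0.00252) and 0 in adult DN2 to DN3 (median 0.0337 to 0.141). It gave 3 to 8 in adult ETP to DN3 (3 without adult ETP 2 or adult DN3 1), 0 to 1 in fetal ETP to DN2 (1 only without fetal DN2 2), 1 in fetal DN2 to DN3, 1 to 2 in fetal ETP to DN3 (2 without adult ETP 3 or fetal DN3 3), 5 to 12 over the 6 groups (12 without adult DN2 2) and 1 to 6 changes between stages (6 without adult ETP 1). The share of all probe sets called was not counted in the runs with arrays left out, with each array centred or with the block. Nor was it counted for gene means, for the compared groups alone or for the adjusted one-way test. Whether the member counts of these runs moved with the whole table was not tested.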

Other observations

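Genes that control growth and the response to stress were counted in the same comparisons, where fetal against adult ETP called 8.49% of all probe sets (5.04% higher and 3.45% lower). Of 17 probe sets of 9 genes of the p53 list, which holds Rps27l, 6 were called higher and 1 lower in fetal ETP against adult ETP (41.2%). The higher ones include Rps27l 1435429_x_at and 1450925_a_at, whose weak calls are counted among the members too. The median difference of the list was 0.0551 log2, and that of all probe sets was 0.0697 log2. Pmaip1, a pro-apoptotic protein, was higher by 3.88 ± 0.74 (adjusted p = 0.00437) and Cdkn1a, an inhibitor of cell cycle kinases, by 2.62 ± 0.35 in 1424638_at (adjusted p = 0.000403), while Trp53inp1 was lower by -2.10 ± 0.28 in 1416926_at (adjusted p = 0.000411). Cdkn1a has a further probe set, whose value is not given here. Of 26 probe sets of 14 genes of Myc and growth control, 0 were higher and 2 were lower (7.69%), Mxd4, an antagonist of Myc, by -1.62 ± 0.34 in 1434378_a_at (adjusted p = 0.0081) and Tsc1, an inhibitor of mTOR signalling, by -1.30 ± 0.25 in 1455252_at (adjusted p = 0.00474). No other probe set of Trp53inp1, Mxd4 or Tsc1 was called lower. Among 37 cell cycle probe sets, fetal ETP had 14 higher and 0 lower (37.8%). In fetal against adult DN2 and DN3 0 were called, against 3.44% and 2.77% of all probe sets.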
